A study of Mus musculus with 18 samples.

Results

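Transcripts of the nuclear pore complex were followed in mouse heart muscle cells sorted by their number of nuclei. The genes were chosen by name: every symbol made of Nup and a number, plus Ndc1, Pom121, Tpr, Aaas, Rae1, Seh1l, Sec13 and Ahctf1. The rule matched 29 mouse symbols, of which 26 were among the 12048 genes listed for every library, and Nup62, Nup62cl and Nup210l were not analysed here. Binucleated and mononucleated cardiomyocytes came from E18.5 embryos (shortly before birth), P7 pups (postnatal day 7) and adults, with 3 libraries in each of the 6 groups and 18 in all. All groups shared the genotype Mlc2vcre:R26REYFP, in which the promoter of the ventricular myosin light chain gene drives Cre recombinase and so marks ventricular heart muscle cells with a yellow fluorescent protein. No other allele, agent or surgery is named in the labels. They do not give the age of the adults, whether animals were pooled, how nuclei were counted in the sort, or whether replicates came from different animals. The p-values therefore speak only of variation among these libraries, which could be technical.

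The nuclear pore complex is a ring-shaped channel through the nuclear envelope, built from many copies of each nucleoporin. An outer ring (the Y complex) and an inner ring form its scaffold, transmembrane proteins anchor it, and nucleoporins rich in phenylalanine and glycine repeats fill the channel and let importins and exportins pass with their cargo. Filaments on the cytoplasmic face help messenger RNA leave, and a basket on the nuclear face meets chromatin. Pores are assembled both after mitosis and during interphase, and scaffold nucleoporins are known to be long-lived proteins in cells that no longer divide, so transcript levels need not follow the number of pores. Heart muscle cells of the mouse leave the cell cycle in the days after birth, when most of them become binucleated.

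The values are counts recovered from the deposited log2 tables and given as scaled CPM, that is CPM after the authors' own scaling of the libraries. A library held 14833334 to 22690952 recovered counts in total, and the lowest count of any of the 26 genes in any library was 67, for Nup210. Heart muscle markers were high in every group, with sums over 12 markers from 38597 to 73756 scaled CPM. Fibroblast markers summed to 318 to 901 scaled CPM over 8 genes in E18.5 binucleated libraries and to 63.0 to 112 in E18.5 mononucleated libraries, and leukocyte markers to 14.4 to 39.0 and 2.37 to 3.16 over 6 genes, with C1qb, C1qc and Laptm5 at 0 in all E18.5 mononucleated libraries. At P7 the fibroblast sums were 49.3 to 64.9 scaled CPM in binucleated and 72.5 to 171 in mononucleated libraries. The leukocyte sums were 2.36 to 4.79 and 15.1 to 25.9. C1qc was at 0 in all P7 binucleated libraries, and C1qb and Laptm5 were at 0 in all P7 mononucleated libraries. Adult fibroblast sums were 65.2 to 123 in binucleated and 96.8 to 134 in mononucleated libraries, and leukocyte sums 10.04 to 11.3 and 12.9 to 17.3. Endothelial markers, 11 genes, summed to 62.5 to 136 scaled CPM in E18.5 binucleated and 16.9 to 35.3 in E18.5 mononucleated libraries, to 11.04 to 12.6 and 10.9 to 25.7 at P7, and to 103 to 124 and 87.5 to 94.2 in the adult. Erythroid markers, 5 genes, summed to 101 to 177 scaled CPM in E18.5 binucleated and 38.5 to 67.3 in E18.5 mononucleated libraries, to 5.24 to 19.7 and 11.98 to 25.1 at P7, and to 0.059 to 3.10 and 0.165 to 11.2 in the adult. Epicardial markers, 4 genes, were at 23.7 to 25.5 scaled CPM in E18.5 binucleated and 4.74 to 9.34 in E18.5 mononucleated libraries and at most 4.84 later. Pericyte and smooth muscle markers, 8 genes, summed to 1321 to 1686 scaled CPM at E18.5, 1083 to 1342 at P7 and 789 to 1090 in the adult over both classes. Of these 8, Pdgfrb was at 0 in all E18.5 mononucleated libraries. The part of all these marker genes in the results was not tested. In bulk samples fewer cells of a type and less RNA per cell cannot be told apart.

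E18.5 binucleated replicate 1 stood apart from its group in a way that followed transcript length. Its long pore transcripts were low: Nup153 had 12.4 scaled CPM there against 50.9 and 46.4 in replicates 2 and 3, and Nup160 had 8.28 against 34.7 and 32.9. Short transcripts were high: Nup37 had 36.7 scaled CPM against 17.3 and 20.8, and Sec13 247 against 170 and 149. Among the pore genes, the median log2 deviation of this library from the mean of the other 2 was -1.16 over the 16 with transcripts longer than 3 kb and 0.12 over the 10 shorter ones, and 16 of 26 lay more than 0.5 below. Spearman's rho between deviation and length was -0.65 over the 26 genes and -0.47 over the 11927 genes with a known length, as a description. The counts of calls and the differences of the genes described from E18.5 in binucleated cells are given with and without it. Other libraries also had length trends, with a smaller spread over the 26 genes. Over the 26 genes rho was 0.77 for P7 mononucleated replicate 1, -0.78 for P7 mononucleated replicate 3 and 0.70 for adult mononucleated replicate 1, and over all genes 0.40, -0.39 and 0.40. In P7 mononucleated replicate 1 the 10 shorter genes had a median deviation of -0.38 and the 16 longer ones 0.12, and in replicate 3 the medians were 0.19 and -0.09. Nup85, Nup35, Aaas and Nup43 all have transcripts under 3 kb. After a correction of every library for transcript length, chosen after seeing the data, the P7 class difference had an adjusted p of 0.0083 for Nup85, 0.00511 for Aaas, 0.014 for Nup43 and 0.0516 for Nup35.

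**Figure D1:**
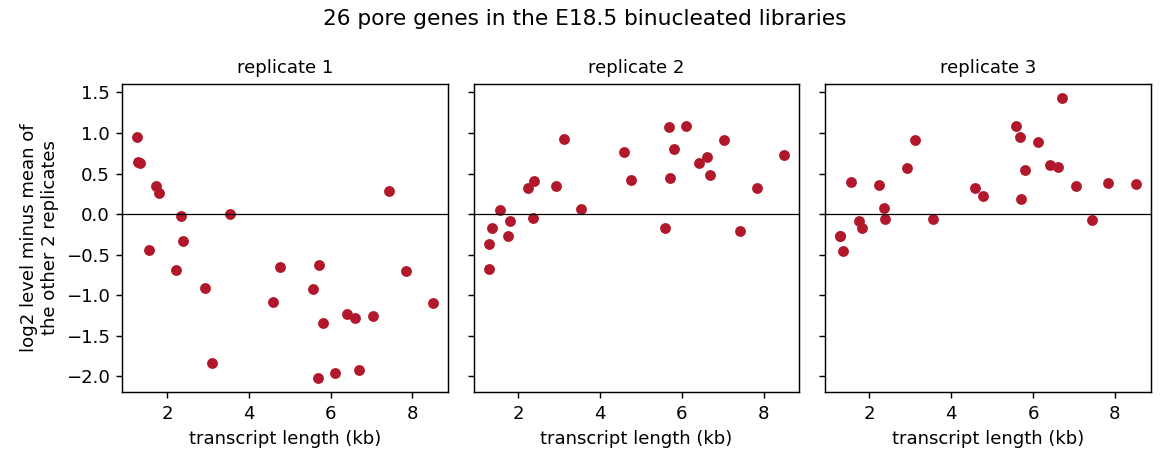
Log2 level of 26 pore genes in each E18.5 binucleated library minus the mean of the other 2 libraries of the group (vertical) against transcript length in kb (horizontal), 1 point per gene. In replicate 1 the genes with transcripts over 3 kb had a median of -1.16 and those under 3 kb a median of 0.12.

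Levels between genes were compared per kb of transcript. The highest medians over the 18 libraries belonged to Sec13, a Y complex subunit that also coats vesicles leaving the endoplasmic reticulum, with 116 scaled CPM per kb, and to Nup88 of the cytoplasmic face with 72.7. Rae1, an mRNA export factor bound to Nup98, followed at 49.7 and Seh1l, a Y complex subunit shared with a nutrient-sensing complex of the lysosome, at 29.8. Nup210, a membrane glycoprotein of the pore that is absent from some cell types, was lowest at 1.58 scaled CPM per kb, and the 21 remaining genes lay between 3.50 and 23.3.

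Pore genes that were called between ages were mostly lower at the later age. In binucleated cells 9 were called between E18.5 and P7 and 4 between P7 and adult, and in mononucleated cells 2 and 9. By a test of the difference itself, the step from E18.5 to P7 differed between the classes for Aaas and Nup85, and the step from P7 to adult for 0 of 26. A gene was called at a limma adjusted p below 0.05 over all 12048 genes. From E18.5 to adult, 11 of 26 pore genes fell and 1, Nup98, rose in binucleated cells, where 29.4% of all genes were called lower and 28.3% higher. In mononucleated cells 12 fell and 0 rose, where 27.7% of all genes were called lower and 26.2% higher. The median log2 difference of the 26 genes was -0.39 in binucleated and -0.44 in mononucleated cells, against -0.02 and -0.01 over all genes. The genes that fell in both classes numbered 10: Aaas, Nup155, Nup205, Nup210, Nup43, Nup50, Nup54, Nup93, Rae1 and Seh1l. The share of all genes that fell in both classes is not given here. This count, and its parts by place in the pore, therefore cannot be set against such a share. Without E18.5 binucleated replicate 1 the counts were 16 lower and 0 higher in binucleated cells and 14 lower in mononucleated cells, where 32.4% and 33.0% of all genes were called lower. When libraries were scaled by their totals, the median of all genes moved by -0.43 in binucleated and -0.40 in mononucleated cells over this span. Then 18 pore genes fell and 0 rose in either class, where 44.1% and 42.5% of all genes were called lower.

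Between E18.5 and P7, 9 pore genes fell and 0 rose in binucleated cells (Aaas, Nup37, Nup43, Nup50, Nup54, Nup85, Nup93, Rae1 and Seh1l), where 17.7% of all genes were called lower and 18.2% higher. In mononucleated cells 2 fell and 0 rose, Rae1 and Seh1l, where 7.84% of all genes were called lower and 10.7% higher. The median log2 difference of the 26 genes was -0.42 in binucleated and -0.11 in mononucleated cells, against 0.03 and 0.01 over all genes. Without E18.5 binucleated replicate 1 there were 17 lower in binucleated cells, and 4 lower and 1 higher in mononucleated cells, where 20.1% and 14.6% of all genes were called lower. The length correction gave 12 and 4 lower, where 21.1% and 12.2% of all genes were called lower. Over the 2 groups of the contrast alone, 2 were called in binucleated cells, where 17.2% of all genes were called. The count in mononucleated cells was 1 without replicate 1 or 2 of either mononucleated group.

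Between P7 and adult the count was larger in mononucleated cells. In binucleated cells 3 fell, Nup43, Nup93 and Rae1, and 1 rose, Ndc1, where 19.7% of all genes were called lower and 17.3% higher. In mononucleated cells 9 fell and 0 rose (Aaas, Nup107, Nup155, Nup205, Nup210, Nup43, Nup85, Nup93 and Rae1), where 22.3% of all genes were called lower and 19.1% higher. The median log2 difference was -0.06 in binucleated and -0.23 in mononucleated cells, against -0.03 and -0.01 over all genes. Without P7 mononucleated replicate 2 the count in mononucleated cells was 5. In binucleated cells it was 1 without P7 replicate 1 or adult replicate 1, 2 without any other library of the 2 groups, and 7 (4 higher and 3 lower) without E18.5 binucleated replicate 1, where 26.2% of all genes were called lower and 24.1% higher. In mononucleated cells 27.9% were called lower without it. That library enters these counts through the shared estimate of spread.

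**Figure D2:**
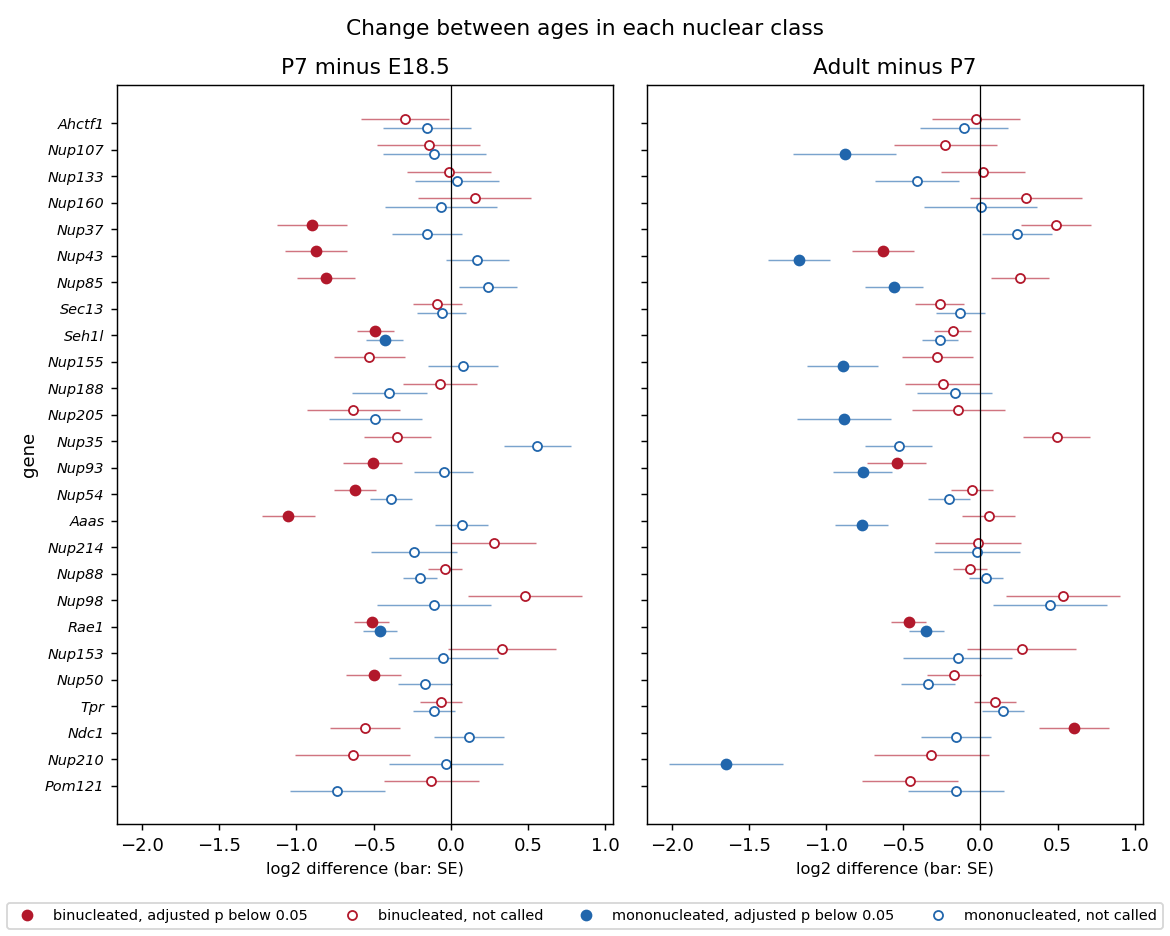
Log2 difference with its standard error for 26 pore genes (rows) between P7 and E18.5 and between adult and P7, in binucleated (red) and mononucleated (blue) cells; filled points had a limma adjusted p below 0.05. At the earlier step 9 binucleated and 2 mononucleated points are filled, at the later step 4 and 9.

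The classes were set against each other within each age. At P7 Nup85, Nup35 and Aaas were called lower in binucleated cells, 3 of the 26, and 0 were called higher, where 2.06% of all genes were called lower and 0.0664% higher. For 14 of the 26 genes all 3 binucleated libraries lay below all 3 mononucleated ones, where 14.7% of all genes did, and for 0 they lay above, where 9.84% did. The 14 were Aaas, Ndc1, Nup107, Nup133, Nup153, Nup155, Nup160, Nup205, Nup35, Nup43, Nup50, Nup54, Nup85 and Nup93, and they came from all 6 places in the pore. The median log2 difference at P7 was -0.23 over the 26 genes and 0.02 over all genes. With a replicate block the count of 3 became 2, Nup85 and Aaas, where 2.37% of all genes were called. It was 7 without E18.5 binucleated replicate 1, where 3.94% of all genes were called lower. It was 1 without P7 binucleated replicate 1 or 3, and 0 without P7 binucleated replicate 2 or P7 mononucleated replicate 2 or 3. At E18.5 limma called 0 of 26, where 0.805% of all genes were called. In the adult it called 0 of 26, where 0.0913% of all genes were called. An unadjusted limma p below 0.05 was found for 2 of 26 at E18.5 and 1 of 26 in the adult. Shares of all genes at that unadjusted limit are not given here, so these counts cannot be set against them. The medians were 0.01 at E18.5 and 0.02 in the adult, and voom weights on the recovered counts also gave 0 calls at these ages.

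**Figure D3:**
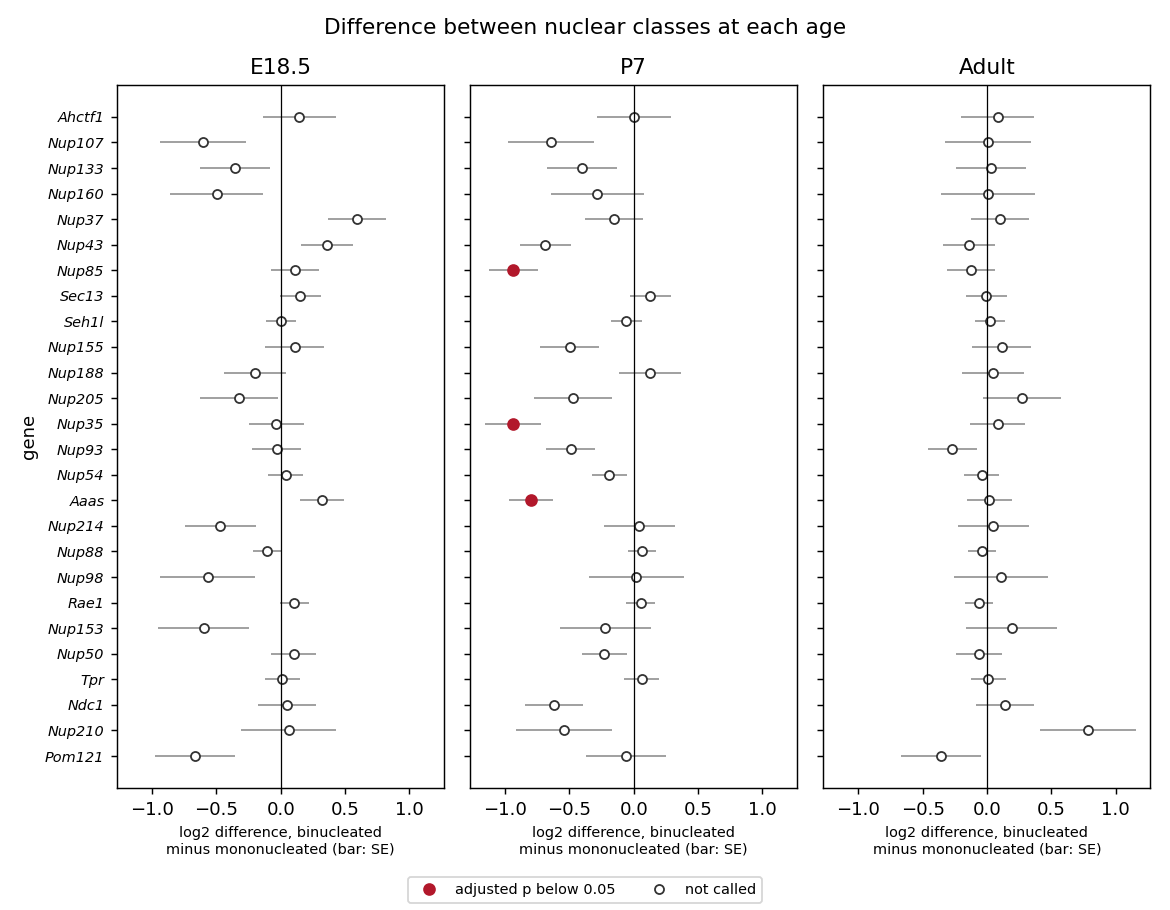
Log2 difference between binucleated and mononucleated cells with its standard error for 26 pore genes (rows) at each of the 3 ages; filled points had a limma adjusted p below 0.05. The 3 filled points, all at P7, are Nup85 at -0.94, Nup35 at -0.94 and Aaas at -0.80.

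Groups without overlap were few at the other ages. At E18.5 all 3 binucleated libraries were above all 3 mononucleated ones for Aaas, Nup37 and Nup43, where 6.91% of all genes were, and 0 genes had them all below, where 7.1% did. In the adult Nup93 had all binucleated libraries below and Nup210 all above, where 3.74% and 2.51% of all genes did. The test of the change in class difference from E18.5 to P7 called Aaas and Nup85, both more negative at P7, where 2.1% of all genes were called in that direction. The change from P7 to adult called 0 of 26, where 0.208% of all genes were called. An unadjusted limma p below 0.05 was found for 5 of 26. The share of all genes at that unadjusted limit is not given here, so this count cannot be set against it.

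**Figure D4:**
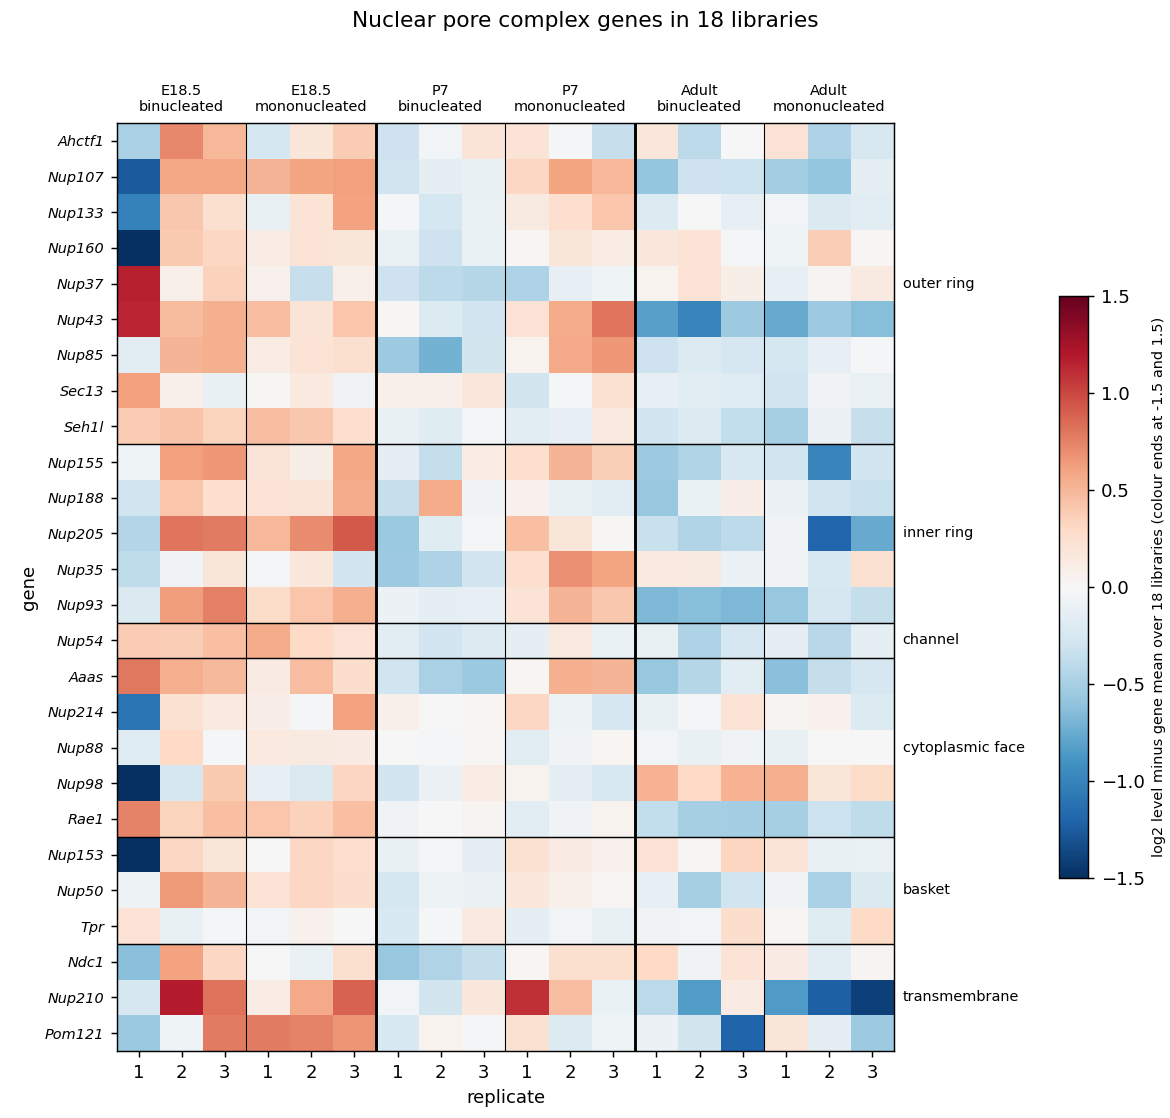
Log2 level of 26 pore genes (rows, ordered by place in the pore) in 18 libraries (columns), each minus the gene's mean over all libraries, in red where above it and blue where below. Most rows are red at E18.5, the P7 mononucleated columns are redder than the P7 binucleated ones in 14 rows without overlap, and E18.5 binucleated replicate 1 is blue in many rows.

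Of the 9 measured genes of the outer ring, the Y-shaped scaffold that recruits later subunits, Nup85 showed the largest class difference at P7. Nup85, which joins Seh1l on a short arm of the Y (ENSMUSG00000020739), had 37.2, 33.1 and 45.1 scaled CPM in P7 binucleated and 56.6, 80.5 and 85.5 in P7 mononucleated libraries. At E18.5 it had 48.6, 77.4 and 78.95 scaled CPM in binucleated and 58.3, 62.8 and 64.0 in mononucleated libraries. In the adult it had 43.8, 47.3 and 45.7 in binucleated and 45.3, 49.9 and 53.8 in mononucleated libraries. The classes were apart at P7 and overlapped in the adult, and at E18.5 they overlapped through binucleated replicate 1 alone. At P7 it was 1.91-fold lower in binucleated cells (log2 difference -0.94 ± 0.19 SE, n = 3 per group, limma adjusted p = 0.0119). The log2 class difference was 1.05 ± 0.27 lower at P7 than at E18.5 (limma adjusted p = 0.0497), with the classes at 0.11 ± 0.19 at E18.5, or 0.34 without E18.5 binucleated replicate 1 (adjusted p = 0.484). This test of the change kept its call in 2 of 18 fits that each left out 1 library and lost it with the replicate block kept at P7 and in the adult (adjusted p = 0.0899), without the lowest 25% of genes and over the 4 groups alone. The class difference at P7 was not called without P7 binucleated replicate 1 or 2, or without P7 mononucleated replicate 2 or 3, with adjusted p from 0.0527 to 0.0885.

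The steps of Nup85 with age were these. In binucleated cells it fell by 0.81 ± 0.19 log2 units between E18.5 and P7 (limma adjusted p = 0.0035), and by 1.03 without E18.5 binucleated replicate 1. In mononucleated cells its log2 difference over that step was 0.24 ± 0.19 (limma adjusted p = 0.419), and it fell by 0.56 ± 0.19 between P7 and adult (limma adjusted p = 0.0252). The later fall was not called without P7 mononucleated replicate 2 or 3 or adult mononucleated replicate 1 or 2, with adjusted p up to 0.113.

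Nup43, a further Y complex subunit (ENSMUSG00000040034), had the largest decline of the outer ring. It had 41.3, 25.9 and 27.2 scaled CPM in E18.5 binucleated, 18.9, 16.3 and 15.4 in P7 binucleated and 10.6, 9.33 and 12.8 in adult binucleated libraries. In mononucleated libraries it had 25.8, 21.3 and 25 at E18.5, 21.9, 27.5 and 32.6 at P7 and 11.03, 12.8 and 12 in the adult. The binucleated libraries came down at each step without overlap, while the mononucleated ones overlapped at E18.5 and P7 and were lower in the adult without overlap. From E18.5 to adult it was 2.83-fold lower in binucleated cells (log2 difference -1.503 ± 0.20, limma adjusted p = 7.97e-06; -1.29 without E18.5 binucleated replicate 1) and 2.01-fold lower in mononucleated cells (-1.005 ± 0.20, limma adjusted p = 0.000489). The class difference at P7 was -0.69 ± 0.20 (limma adjusted p = 0.104), and its adjusted p was 0.0213 without E18.5 binucleated replicate 1.

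Seh1l (ENSMUSG00000079614) fell between E18.5 and P7 in both classes. It had 147, 152 and 143 scaled CPM in E18.5 binucleated, 105, 99.8 and 111 in P7 binucleated and 92.99, 98.2 and 87.8 in adult binucleated libraries. Mononucleated libraries had 157, 150 and 135 at E18.5, 101, 104 and 126 at P7 and 80.0, 106 and 89.5 in the adult. At P7 all libraries were below all E18.5 libraries of the same class. The log2 difference between P7 and E18.5 was -0.49 ± 0.12 in binucleated (limma adjusted p = 0.00476; -0.49 without E18.5 binucleated replicate 1) and -0.43 ± 0.12 in mononucleated cells (limma adjusted p = 0.0185). The call in mononucleated cells was lost without replicate 1 or 2 of either mononucleated group, with adjusted p up to 0.08335. The call in binucleated cells was lost over the 2 groups alone. The classes overlapped at each age.

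The other outer ring genes moved less or in 1 class. Nup37 had 36.7, 17.3 and 20.8 scaled CPM in E18.5 binucleated against 13.3, 12.5 and 12.2 in P7 binucleated libraries. Its fall of 0.90 ± 0.23 log2 units between them (limma adjusted p = 0.00586) was 0.58 without E18.5 binucleated replicate 1 (adjusted p = 0.0128), and it was 17.01, 19.0 and 17.4 in adult binucleated libraries. Nup107, also of the Y complex, had 26.5, 31.8 and 31.5 scaled CPM in adult binucleated and 16.5, 59.1 and 58.8 in E18.5 binucleated libraries. In mononucleated libraries it had 27.5, 26.5 and 35.8 in the adult against 56.1, 59.5 and 60.7 at E18.5. The fall was called in mononucleated cells (log2 difference -0.98 ± 0.33, limma adjusted p = 0.0201), and in binucleated cells the difference was -0.37 ± 0.33, but -0.98 without replicate 1 (adjusted p = 1.15e-05). Nup133, Nup160, Sec13 and Ahctf1 (also called Elys, which brings the Y complex to chromatin after mitosis) were called in 0 of the 11 contrasts, and without E18.5 binucleated replicate 1 Nup133 and Ahctf1 were called lower in adult than in E18.5 binucleated cells.

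The inner ring had 5 measured genes, and 3 of them, Nup93, Nup205 and Nup155, fell from E18.5 to adult in both classes. Nup93, a hub that links inner ring and channel (ENSMUSG00000032939), had 51.9, 92.8 and 103 scaled CPM in E18.5 binucleated, 56.7, 54.6 and 55.9 in P7 binucleated and 37.9, 38.8 and 38.1 in adult binucleated libraries. Mononucleated libraries had 73.6, 81.1 and 88.2 at E18.5, 69.8, 86.0 and 80.0 at P7 and 40.7, 51.1 and 47.3 in the adult. P7 mononucleated libraries lay within the E18.5 range or just under it, and all P7 binucleated libraries were below them. The log2 difference between adult and E18.5 was -1.05 ± 0.19 in binucleated (limma adjusted p = 0.00019; -1.35 without E18.5 binucleated replicate 1) and -0.81 ± 0.19 in mononucleated cells (limma adjusted p = 0.00198). Its fall in binucleated cells between E18.5 and P7, of 0.51 ± 0.19 (limma adjusted p = 0.0493), kept its call in 1 of 18 fits that left out 1 library, the fit without E18.5 binucleated replicate 1, where it was 0.81.

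Nup205, a large scaffold protein of the inner ring (ENSMUSG00000038759), had 35.3, 32.7 and 33.8 scaled CPM in adult binucleated and 32.8, 77.7 and 76.6 in E18.5 binucleated libraries. In mononucleated libraries it had 43.0, 19.6 and 26.4 in the adult and 62.8, 72.8 and 84.4 at E18.5. Replicate 1 alone made the binucleated groups overlap, and the mononucleated groups did not overlap. The log2 difference was -0.77 ± 0.30 in binucleated (limma adjusted p = 0.0382; -1.18 without that library, adjusted p = 0.000554) and -1.37 ± 0.30 in mononucleated cells (limma adjusted p = 0.00115). The fall in binucleated cells was not called over the 2 groups alone. It was also not called without E18.5 binucleated replicate 2 or 3 or any adult binucleated library, with adjusted p up to 0.152.

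Nup155 (ENSMUSG00000022142), a scaffold gene in which human variants have been tied to inherited atrial fibrillation, had 18.8, 20.0 and 23.4 scaled CPM in adult binucleated and 26.1, 41.8 and 43.0 in E18.5 binucleated libraries. In mononucleated libraries it had 22.3, 13.7 and 22.5 in the adult, against 32.7, 38.7 and 34.9 at P7 and 31.4, 29.1 and 41.0 at E18.5. Adult mononucleated libraries were below all earlier mononucleated ones, and adult binucleated libraries were below all E18.5 binucleated ones. Between adult and E18.5 the log2 difference was -0.81 ± 0.23 in binucleated (limma adjusted p = 0.00632; -1.04 without E18.5 binucleated replicate 1) and -0.81 ± 0.23 in mononucleated cells (limma adjusted p = 0.00652).

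Nup35, which binds membrane and links Nup93 to Nup155 (ENSMUSG00000026999), had few counts, 84 to 249 per library. It had 4.95, 5.21 and 5.92 scaled CPM in P7 binucleated and 8.55, 11.6 and 10.9 in P7 mononucleated libraries. At E18.5 it had 5.54, 6.96 and 8.18 in binucleated and 7.09, 8.07 and 5.91 in mononucleated libraries, and in the adult 7.98, 7.93 and 6.78 in binucleated and 6.92, 6.15 and 8.45 in mononucleated libraries. The P7 mononucleated libraries were above every other library of the gene. At P7 it was 1.92-fold lower in binucleated cells (log2 difference -0.94 ± 0.22, limma adjusted p = 0.0291). That call was lost with the replicate block (adjusted p = 0.0787), after the length correction (0.0516), after quantile normalization (0.129) and without any P7 library but mononucleated replicate 1 (0.0595 to 0.147). The change in class difference from E18.5 to P7 was -0.91 ± 0.30 (limma adjusted p = 0.161). Nup188, the fifth gene of the ring, was called in 0 of the 11 contrasts.

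Nup54, the measured gene of the channel proper, whose repeats form part of the transport barrier (ENSMUSG00000034826), had its levels in narrow ranges. It had 47.0, 46.4 and 49.4 scaled CPM in E18.5 binucleated, 32.1, 29.6 and 31.3 in P7 binucleated and 33.4, 26.2 and 30.3 in adult binucleated libraries. Mononucleated libraries had 53.2, 44.4 and 42.0 at E18.5, 33.0, 39.9 and 33.6 at P7 and 32.7, 27.0 and 32.6 in the adult. All P7 and adult libraries were below all E18.5 libraries of either class. The log2 difference between adult and E18.5 was -0.67 ± 0.14 in binucleated (limma adjusted p = 0.000523; -0.68 without E18.5 binucleated replicate 1) and -0.59 ± 0.14 in mononucleated cells (limma adjusted p = 0.00163), and both stayed called in each of 18 fits that left out 1 library.

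The cytoplasmic face and its export docking sites had 5 measured genes, and Aaas and Rae1 fell with age while Nup214 and Nup88 were called in 0 contrasts, though Nup88 was lower in adult than in E18.5 binucleated cells without E18.5 binucleated replicate 1 (adjusted p = 0.0441). Aaas, which encodes aladin, a protein mutated in human triple A syndrome (ENSMUSG00000036678), had 21.1, 18.7 and 17.8 scaled CPM in P7 binucleated and 26.6, 37.7 and 37.0 in P7 mononucleated libraries. At E18.5 it had 44.8, 38.1 and 36.5 in binucleated and 28.5, 35.8 and 31.3 in mononucleated libraries. In the adult it had 17.5, 19.4 and 23.0 in binucleated and 16.8, 20.4 and 21.9 in mononucleated libraries. Binucleated cells were thus above mononucleated cells without overlap at E18.5, below them without overlap at P7, and overlapped with them in the adult.

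At P7 Aaas was 1.74-fold lower in binucleated cells (log2 difference -0.80 ± 0.17, limma adjusted p = 0.0193), and at E18.5 its difference was 0.32 ± 0.17 (limma adjusted p = 0.402). The change in class difference was -1.12 ± 0.24 (limma adjusted p = 0.0221). Without E18.5 binucleated replicate 1 it was -1.03 (adjusted p = 0.0197), and with the replicate block it had an adjusted p of 0.0462. The call at P7 was lost without P7 binucleated replicate 2 or 3 or P7 mononucleated replicate 2 or 3 (adjusted p from 0.0798 to 0.118) and after quantile normalization (0.053). The call of the change was lost without those 4 libraries or without E18.5 mononucleated replicate 1 or 3 (0.0502 to 0.0691). In binucleated cells Aaas fell by 1.05 ± 0.17 log2 units between E18.5 and P7 (limma adjusted p = 0.000211; 0.96 without E18.5 binucleated replicate 1), and in mononucleated cells by 0.77 ± 0.17 between P7 and adult (limma adjusted p = 0.0019).

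Rae1 (ENSMUSG00000027509) had the smallest adjusted p of the pore genes and fell at both steps in both classes. Its levels were 147, 111 and 120 scaled CPM in E18.5 binucleated, 84.7, 88.3 and 90.4 in P7 binucleated and 67.5, 62.2 and 61.2 in adult binucleated libraries. Mononucleated libraries had 117, 112 and 120 at E18.5, 78.8, 84.5 and 90.9 at P7 and 62.2, 70.0 and 67.0 in the adult. The 3 ages did not overlap in either class. The fall between P7 and adult in mononucleated cells had a limma adjusted p of 0.0196. That call was lost without P7 mononucleated replicate 2 or 3 or adult mononucleated replicate 1, with adjusted p up to 0.0834. The call between E18.5 and P7 in binucleated cells was lost over the 2 groups alone. Between adult and E18.5 the log2 difference was -0.98 ± 0.11 in binucleated (limma adjusted p = 1.51e-06; -0.86 without E18.5 binucleated replicate 1) and -0.81 ± 0.11 in mononucleated cells (limma adjusted p = 1.43e-05). The classes overlapped at each age.

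Nup98, a repeat nucleoporin that also works away from the pore on active genes, went the other way. It had 59.7, 51.3 and 59.9 scaled CPM in adult binucleated and 11.5, 35.1 and 54.5 in E18.5 binucleated libraries, and 61.2, 47.1 and 50.7 in adult mononucleated and 38.4, 36.1 and 52.0 in E18.5 mononucleated libraries. In binucleated cells the log2 difference was 1.02 ± 0.37 (limma adjusted p = 0.026). Without E18.5 binucleated replicate 1, the library with 11.5, it was 0.38 (adjusted p = 0.103), and the call was also lost without adult binucleated replicate 1 or 3, over the 2 groups alone, with array weights and when libraries were scaled by their totals. In mononucleated cells the difference was 0.34 ± 0.37, and -0.05 with totals.

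**Figure D5:**
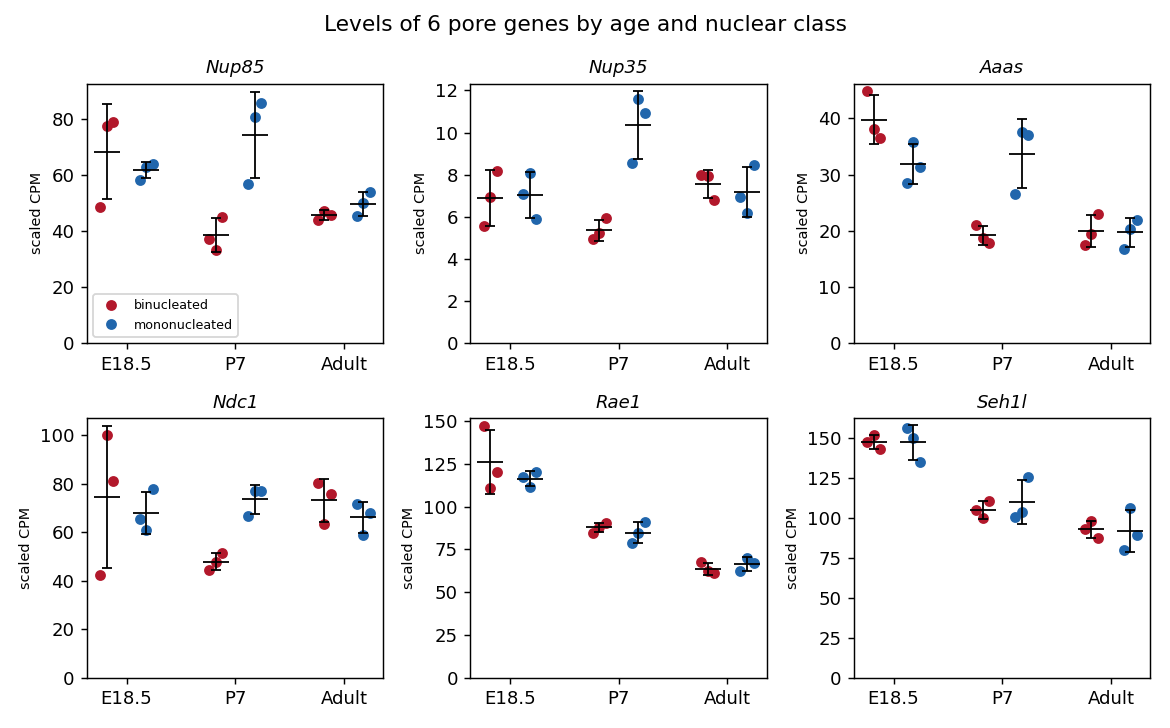
Scaled CPM of 6 pore genes (vertical, from 0) by age, binucleated in red and mononucleated in blue, 1 point per library with mean and SD bars (n = 3). Nup85, Nup35, Aaas and Ndc1 have binucleated points below all mononucleated points at P7, while Rae1 and Seh1l decline in both classes.

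The nuclear basket had 3 measured genes, of which Nup50, a mobile partner of importin alpha, fell in both classes and Nup153 and Tpr were called in 0 contrasts. Nup50 (ENSMUSG00000016619) had 26.7, 20.6 and 23.7 scaled CPM in adult binucleated and 27.7, 45.6 and 41.6 in E18.5 binucleated libraries, and 28.3, 20.8 and 25.1 in adult mononucleated against 33.5, 36.3 and 35.0 in E18.5 mononucleated libraries. Adult libraries were below all E18.5 libraries of their class. The log2 difference was -0.67 ± 0.18 in binucleated (limma adjusted p = 0.00384; -0.89 without E18.5 binucleated replicate 1) and -0.51 ± 0.18 in mononucleated cells (limma adjusted p = 0.023). Tpr, the coiled-coil filament of the basket, had 151, 154 and 189 scaled CPM in adult binucleated and 182, 146 and 155 in E18.5 binucleated libraries. Adult mononucleated libraries had 161, 139 and 193, against 153, 165 and 157 at E18.5, so the ages overlapped in both classes. Nup153, which docks importins at the basket, had 47.9, 41.6 and 51.1 scaled CPM in adult binucleated and 12.4, 50.9 and 46.4 in E18.5 binucleated libraries.

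The 3 measured transmembrane genes were Nup210, Pom121 and Ndc1. Nup210 (ENSMUSG00000030091) had 8.21, 6.07 and 11.9 scaled CPM in adult binucleated and 9.10, 24.8 and 19.1 in E18.5 binucleated libraries. In mononucleated libraries it had 6.04, 4.63 and 4.10 in the adult, 23.3, 15.0 and 10.2 at P7 and 11.8, 16.1 and 20.1 at E18.5. Adult mononucleated libraries were the lowest of all and the only ones entirely below the earlier ages. The log2 difference between adult and E18.5 was -0.95 ± 0.37 in binucleated (limma adjusted p = 0.0364; -1.37 without E18.5 binucleated replicate 1) and -1.68 ± 0.37 in mononucleated cells (limma adjusted p = 0.00114), a 3.20-fold fall. The call in binucleated cells was lost after quantile normalization and over the 2 groups alone, and without E18.5 replicate 2 or 3 or adult replicate 1 or 2, with adjusted p up to 0.164. In the adult the class difference was 0.79 ± 0.37, with all binucleated above all mononucleated libraries and a limma adjusted p of 0.9998.

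Pom121, which helps to insert new pores in interphase (ENSMUSG00000053293), had 25.6, 20.5 and 15.6 scaled CPM in adult mononucleated and 38.7, 37.7 and 35.7 in E18.5 mononucleated libraries (log2 difference -0.89 ± 0.31, limma adjusted p = 0.023). In binucleated libraries it had 21.2, 18.7 and 9.82 in the adult and 15.3, 21.8 and 39.0 at E18.5, which overlapped (log2 difference -0.58, adjusted p = 0.12; -0.89 without E18.5 binucleated replicate 1, adjusted p = 0.0164). Of its transcript, 11.9% overlaps the gene Nsun5 on the opposite strand, and whether the counting used strand is not given, so reads of the 2 genes may be mixed. Ndc1, the anchor of the pore in the membrane (ENSMUSG00000028614), had 44.3, 47.8 and 51.4 scaled CPM in P7 binucleated and 66.7, 77.1 and 77.1 in P7 mononucleated libraries, without overlap. In adult binucleated libraries it had 80.3, 63.3 and 75.8, all above P7 binucleated ones. The log2 difference between adult and P7 was 0.61 ± 0.23 in binucleated cells (limma adjusted p = 0.0445), a call kept in 5 of 18 fits that left out 1 library and lost after quantile normalization, with voom weights and when libraries were scaled by their totals. The class difference at P7 was -0.62 ± 0.23 (limma adjusted p = 0.249), and its adjusted p was 0.00744 without E18.5 binucleated replicate 1.

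Promoters were read from RefSeq's table for GRCm38.p6. Stretches are printed for some of the 10 genes that fell from E18.5 to adult in both classes, whose steps differed. In mononucleated cells Nup210 had a log2 difference of -0.031 from E18.5 to P7 and -1.645 from P7 to adult. In binucleated cells Nup54 had -0.619 and -0.054. Shared regulation was not tested. Of the 26 genes, 22 had an entry, and the 250 bases before the start site were searched on both strands for 4 motifs. Nup35, Nup43, Nup85 and Seh1l had no entry and were not searched, so Nup43 and Seh1l of the 10 are without a reading. The letters CCGGAAG, bound by ETS factors, were found in 6 of the 22 (Aaas, Nup107, Nup155, Nup37, Nup54 and Sec13), that is 27.3%, and in 16% of the promoters of 9376 measured genes. The letters TTTGGCGC, TTTGCCGC, TTTCGCGC or TTTCCCGC, bound by E2F factors, were found in 1 of 22, Nup210, and in 3.98% of 9376. The letters CCAAT, bound by NF-Y, were found in 8 of 22 (Nup155, Nup214, Nup37, Nup50, Nup88, Nup93, Nup98 and Tpr), that is 36.4%, and in 40.9% of 9376. The letters TATAAA were found in 2 of 22, Nup160 and Nup93, that is 9.09%, and in 7.72% of 9376. The 120 bases that hold the match are shown for the 4 of the 10 genes with an ETS or E2F match, with the match in capitals. They are Aaas at chr15:102350760-102350879 on the minus strand, Nup155 at chr15:8109193-8109312 on the plus strand, Nup54 at chr5:92435200-92435319 and Nup210 at chr6:91116827-91116946, both on the minus strand.
Aaas: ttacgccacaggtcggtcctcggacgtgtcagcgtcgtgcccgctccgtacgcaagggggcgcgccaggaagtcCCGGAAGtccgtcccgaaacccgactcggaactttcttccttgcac
Nup155: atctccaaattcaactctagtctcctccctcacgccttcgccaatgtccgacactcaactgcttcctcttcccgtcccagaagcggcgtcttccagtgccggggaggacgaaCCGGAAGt
Nup54: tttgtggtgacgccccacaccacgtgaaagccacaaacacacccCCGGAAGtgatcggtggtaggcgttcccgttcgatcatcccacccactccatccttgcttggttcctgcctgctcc
Nup210: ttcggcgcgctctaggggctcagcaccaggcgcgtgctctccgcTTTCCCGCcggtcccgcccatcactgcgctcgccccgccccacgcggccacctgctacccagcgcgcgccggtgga

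A match is a description of letters and not a site. Aaas, Nup54 and Nup155, which share CCGGAAG, fell from E18.5 to adult by 0.594 to 0.998 log2 units over both classes. Of the other genes with these letters, Nup37 and Sec13 were not called over that span and Nup107 was called in mononucleated cells alone. Nup93 and Nup50 fell with CCAAT and neither an ETS nor an E2F match in their windows, and Rae1 and Nup205 fell with none of the 4 motifs.

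Genes that work with the pore were compared as lists. Of 17 measured importins, with a median log2 difference of 0.40 in binucleated and 0.21 in mononucleated cells, 6 rose and 1 fell from E18.5 to adult in binucleated cells and 6 rose and 2 fell in mononucleated cells, where 28.3% of all genes were called higher and 29.4% lower in binucleated and 26.2% and 27.7% in mononucleated cells. The same shares apply to the lists that follow, for counts under the authors' scaling with all 18 libraries. Counts near them are no result about a list. Scaled by library totals the importins had 4 higher and 3 lower in binucleated and 4 higher and 5 lower in mononucleated cells. In that setting 44.1% and 42.5% of all genes were called lower. Without E18.5 binucleated replicate 1 the importins had 6 higher and 5 lower in binucleated cells, where 32.4% of all genes were called lower. Shares called higher are not given for either setting. Ipo13, an import and export receptor, was 3.89-fold higher in adult than in E18.5 binucleated cells (log2 difference 1.96 ± 0.26, limma adjusted p = 7.23e-06; 2.998-fold without E18.5 binucleated replicate 1). Kpna1, an importin alpha, was 3.63-fold and Ipo5, an import receptor, 2.20-fold higher, or 2.69-fold and 1.89-fold without that library. Kpnb1, importin beta, was 2.93-fold lower in adult binucleated (limma adjusted p = 2.69e-05) and 2.03-fold lower in adult mononucleated cells (limma adjusted p = 0.00142), and it was chosen for its direction after its values were seen. Without that library the binucleated value was 2.48-fold. Of 18 exportins and mRNA export genes, 4 rose and 9 fell in binucleated and 1 rose and 9 fell in mononucleated cells, with medians of -0.49 and -0.56. Thoc6, of an mRNA export complex, fell 2.74-fold in binucleated cells, the RNA helicase gene Ddx39b 2.06-fold and Nxt1, a partner of the main mRNA export receptor, 3.18-fold. Without E18.5 binucleated replicate 1 these falls were 2.40-fold, 2.02-fold and 2.66-fold.

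Of 6 measured genes of the Ran cycle, which gives transport its direction, 3 fell in binucleated and 4 in mononucleated cells from E18.5 to adult, and 0 rose, with medians of -0.73 and -0.86. In binucleated cells Ranbp1 fell 3.84-fold, Rangap1, the Ran GTPase activator, 3.22-fold, and Ran itself 2.00-fold. Summed over the 6 genes, the E18.5 binucleated libraries had 1409 scaled CPM in replicate 1 and 969.6 and 938.3 in the others, and without replicate 1 the falls were 3.01-fold, 3.54-fold and 1.68-fold. Of 17 other pore-associated genes, 8 rose and 4 fell in binucleated and 4 rose and 5 fell in mononucleated cells. The medians were 0.37 in binucleated and 0.04 in mononucleated cells. When scaled by totals, 2 rose and 6 fell in each class. In that setting 44.1% of all genes were called lower in binucleated and 42.5% in mononucleated cells. Examples are Tor1aip1, an activator of torsins in the nuclear envelope, 2.79-fold higher and Tor1a, a torsin, 2.54-fold lower in binucleated cells (2.55-fold and 2.35-fold without E18.5 binucleated replicate 1), and Reep5, which shapes membranes of the endoplasmic reticulum, was 1.99-fold higher in adult than in E18.5 mononucleated cells. Of 12 genes of the lamina and its links to the cytoskeleton, 2 rose and 5 fell in binucleated and 1 rose and 5 fell in mononucleated cells, with medians of -0.32 and -0.34. Lmnb1, lamin B1, was 28.6-fold lower in adult than in E18.5 mononucleated cells. Banf1, which binds chromatin to the envelope, was 2.84-fold lower in adult than in E18.5 binucleated cells, or 2.04-fold without replicate 1.

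Among these 5 lists, the fit over all 18 libraries called Tmpo, which encodes lamina-associated polypeptides, and no other gene between the classes. Without E18.5 binucleated replicate 1 it also called Senp1, Nxt1, Thoc3, Ranbp1, Lbr and Lmnb2 lower and Reep5 higher in P7 binucleated cells, and Rangap1 higher in E18.5 binucleated cells. Tmpo averaged 113 ± 6.35 scaled CPM in P7 binucleated and 182 ± 9.19 in P7 mononucleated libraries (SD, n = 3 each), without overlap. At E18.5 it averaged 319 ± 69.7 in binucleated and 284 ± 19.2 in mononucleated libraries, and in the adult 45.2 ± 1.24 and 47.3 ± 0.69. The log2 difference at P7 was -0.69 ± 0.13 (limma adjusted p = 0.00822), and the change in class difference from E18.5 to P7 was -0.83 ± 0.18 (limma adjusted p = 0.0264), or -1.02 without E18.5 binucleated replicate 1. The call of the change was lost with the replicate block kept at P7 and in the adult, after quantile normalization, over the 4 groups alone, and without E18.5 binucleated replicate 2, E18.5 mononucleated replicate 1 or 2, P7 binucleated replicate 2 or 3 or P7 mononucleated replicate 2 or 3. For scale, 20 of 22 genes for DNA replication and the G1/S step were called lower in P7 binucleated cells. Their median log2 difference was -2.34. So were 3 of 20 G2/M and mitosis genes, with a median of -1.01, beside 3 of 26 pore genes with a median of -0.23. The G2/M and mitosis genes summed to 346 to 431 scaled CPM in P7 binucleated and 659 to 787 in P7 mononucleated libraries. At E18.5 these sums were 2648 to 2827 in binucleated and 1062 to 1661 in mononucleated libraries. The replication genes summed to 1256 to 1912 and 1738 to 1842 at E18.5, which overlapped, and to 447 to 625 and 1684 to 2470 at P7. Their part in the pore results was not tested.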

How the data were processed

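RNA of cells sorted into Trizol-LS was made into libraries with a TruSeq stranded mRNA kit and SMARTer amplification, per the labels' protocols. STAR, limma and mm9 are named, per the submitters' processing notes. Not given in the sources used here: tool versions, the read counter and its strand setting, the annotation, and filters on genes. The authors deposited log2 values for 12048 genes in each of 18 libraries. Dividing by 1 factor per library and taking off an offset of 0.5 gave whole counts for 100% of values (tolerance 0.001, largest distance 9.6e-09). Scaled CPM divide these counts by a library size proportional to the inverse of the authors' factor. No molecular identifiers are described, so depth speaks of counting error only. The offset makes fold changes of low genes too small.

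Symbols and transcript lengths came from GENCODE M21 (11927 identifiers matched, 121 did not). limma 3.58.1 (R 4.3.3) fitted 6 group means to the deposited log2 values with an intensity trend and 12 residual degrees of freedom. The 11 contrasts had two-sided tests with Benjamini-Hochberg adjustment over 12048 genes and a threshold of 0.05, and the fit was tested on simulated data. Tables were written with Python 3.11.15. Deviations of same-numbered libraries of the 2 classes from their group means correlated at 0.0545 to 0.158 at E18.5. The range was 0.182 to 0.236 at P7 and 0.261 to 0.327 in the adult. For libraries with different numbers it was -0.0949 to 0.00177 at E18.5, -0.135 to -0.0687 at P7 and -0.21 to -0.0574 in the adult. Same-numbered pairs were thus higher at each age, and least so at E18.5. The main fit did not use this pairing, and the replicate block did.

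The pore genes and lists were chosen with earlier results of these data known. By rule, the genes described in full were those called between classes or in a change of class difference, and up to 3 per place in the pore with the smallest adjusted p between adult and E18.5. Of other lists, genes called between classes were named, otherwise up to 3 with the smallest adjusted p between ages. Other genes are named as examples, chosen after their values were seen. Alternatives were quantile normalization, scaling by library totals, array weights, voom weights on the recovered counts, log2 of CPM plus 1, leaving out the lowest 25% of genes, fitting only the groups compared, a replicate block, leaving out each library, and a transcript length correction chosen after seeing the data.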

Additional observations from a re-analysis of the deposited data

Results flagged for a closer look

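For 2 pore genes the difference between binucleated and mononucleated cells passed a test of its change between E18.5 and P7 in the fit of all libraries. For Aaas the change was -1.122 ± 0.24 log2 units (SE, n = 3 per group, limma adjusted p = 0.0221), with class differences of -0.80 at P7 and 0.32 at E18.5. For Nup85 it was -1.049 ± 0.27 (limma adjusted p = 0.0497), with class differences of -0.94 at P7 and 0.11 at E18.5. The call for Aaas was kept in 12 of 18 fits that each left out 1 library. The call for Nup85 was kept in 2 of 18 and was lost with the replicate block kept at P7 and in the adult (adjusted p = 0.0899), without the lowest 25% of genes and over the 4 groups alone. Summed fibroblast and leukocyte markers were higher in binucleated libraries at E18.5 and in mononucleated libraries at P7. Of the leukocyte markers, C1qb and Laptm5 were at 0 in all P7 mononucleated libraries and C1qc in all P7 binucleated ones. G2/M and mitosis genes summed to 2648 to 2827 scaled CPM in binucleated and 1062 to 1661 in mononucleated libraries at E18.5. At P7 they summed to 346 to 431 and 659 to 787. The part of all these genes in the changes was not tested.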

How the results depend on the processing

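Counts of pore genes called depended on the fit, and the cause was not tested. The share of all genes called under the same setting stands after each count. With only the groups compared, 6 were called between classes at P7 (5.05% of all genes; 3 over all libraries), 2 (17.2%) in binucleated and 5 (32.2%) in mononucleated cells from E18.5 to P7 (9 and 2 over all libraries), 7 (51.1%) in binucleated cells from P7 to adult (4), 7 (42.0%) in binucleated cells from E18.5 to adult (12), and 1 (2.22%) for the change of class difference from E18.5 to P7 (2). With array weights, where E18.5 binucleated replicate 1 had a weight of 0.0494, there were 9 (11.6%) between classes at P7, 19 (51.1%) in binucleated and 8 (43.0%) in mononucleated cells from E18.5 to P7, 8 (53.8%) and 15 (61.5%) from P7 to adult, 10 (9.95%) for the change from E18.5 to P7 and 4 (1.93%) for that from P7 to adult (0). Quantile normalization gave 1 (1.8%) between classes at P7. Library totals gave 14 (44.8%) in mononucleated cells and voom weights 2 (35.5%) in binucleated cells from P7 to adult. For the change from E18.5 to P7 the filter on low genes gave 1 (1.29%) and the length correction 4 (4.41%), and the length correction also gave 4 (27.1%) in mononucleated cells from E18.5 to P7.

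With the replicate block, 2 were called between classes at P7 (2.37% of all genes) and 2 for the change from E18.5 to P7 (2.42%). It gave 0 at E18.5 (0.863%) and 0 in the adult (0.208%). Kept at P7 and in the adult only, the block gave 2 at P7 (1.9% of all genes) and 1 for the change from E18.5 to P7 (1.69%). It ended the P7 call of Nup35, and in the second form those of Nup85 and Tmpo for the change, and no other call of a pore gene named here. Age contrasts cannot be estimated with it.

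Leaving out 1 library at a time, counts ran from 0 to 7 between classes at P7 and were 0 at E18.5 and in the adult. In binucleated cells they ran from 7 to 17 (E18.5 to P7), 1 to 7 (P7 to adult) and 8 to 16 (E18.5 to adult), and in mononucleated cells from 1 to 5, 5 to 13 and 10 to 14. For the change from E18.5 to P7 they were 4 without E18.5 binucleated replicate 1, and 2 without E18.5 binucleated replicate 2 or P7 mononucleated replicate 1. They were 0 without E18.5 mononucleated replicate 1 or 3 or replicate 2 or 3 of either P7 group, and 1 without any other library. For the change from P7 to adult they were 0. Shares of all genes are given above for the fit without E18.5 binucleated replicate 1 only, so the other counts cannot be set against them.

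Of 62 values of single pore genes, 2 that were not called changed sign. Nup98 between adult and E18.5 mononucleated cells was -0.051 with library totals, and the class difference of Nup85 at E18.5 was -0.008 without E18.5 binucleated replicate 3, the lowest of its leave-one-out values, and 0.342 without replicate 1, the highest. Depth limits Nup210 and Nup35 most, with lowest counts of 67 and 84.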
